A study of Mus musculus with 9 samples.

Results

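The mRNAs described here are those of the Ppp protein phosphatases, chosen as every gene of the authors' gene table whose symbol is Ppp followed by a digit. The rule gave 58 of the 29232 genes of that table, of which 11 encode catalytic subunits (a c after the first digit) and 47 encode regulatory subunits (an r after the first digit). Their tags were counted in 9 HITS-CLIP libraries of polyribosomes from brain cortex and cerebellum of FVB mice, an inbred strain. In HITS-CLIP, ultraviolet light fixes a protein to the RNA it touches, antibodies pull the protein down, and the RNA fragments bound to it are read as short sequences called tags. FMRP, the RNA-binding protein whose loss causes fragile X syndrome, was precipitated with the polyclonal antibody ab17722 from P11 and P13 polyribosomes by Protocol 2 (dissociation in 2% SDS) and read on Illumina. By Protocol 1 (1% SDS) and on the 454 platform it was precipitated with the mixed monoclonal antibodies 7G1-1 and 2F5 from P14, P15 and P25 mice, and with the polyclonal antibody from P14 and P25 mice. Hu proteins, neuronal RNA-binding proteins that also sit on polyribosomes, were precipitated with a human antiserum from the same P11 and P13 lysates, by Protocol 2 and on Illumina. Each library came from pooled littermates, so n counts libraries, and the libraries of a group also differ in age. The labels' protocols name male wild-type and Fmr1Tm1Cgr (null) littermates for Protocol 1, and the libraries' own labels give the strain and no genotype. The series text describes Fmr1-null littermates run in parallel to control for antibody specificity, and such libraries were not analysed here.

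Phosphatases of the Ppp family remove phosphate from serine and threonine. A small set of catalytic subunits is shared among many regulatory subunits, which place the enzyme and choose its substrates. PP1 works with many targeting proteins, such as the spine scaffolds neurabin and spinophilin. PP2A is built from a scaffold, a catalytic and a variable B subunit, and has been described as a phosphatase of FMRP itself. Calcineurin, encoded by the Ppp3 genes, is switched on by calcium and calmodulin and is known at synapses for its part in long-term depression. FMRP is known for tags spread along coding sequence, and Hu proteins for binding uridine-rich stretches of 3′ UTRs.

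Transcript tags numbered 26794 and 44076 in the FMRP Illumina libraries, 4397 to 7713 in the 5 FMRP libraries on 454, and 25873 and 49847 in the Hu libraries. A gene with no tag could still hold up to 3 counts, which is 60.2 CPM (a gene's tags per 1000000 tags of its library) in the deepest library and 682 CPM in the shallowest. Of the neuronal markers, 8 of 8 had tags, while 4 of 6 microglial and 3 of 6 endothelial markers had none. The 8 neuronal markers summed to 3098 to 6933 CPM in FMRP libraries and 7305 to 12258 CPM in Hu libraries. The 6 oligodendrocyte markers summed to 299 to 2382 CPM in FMRP libraries and 5334 to 11836 CPM in Hu libraries, the 6 astrocyte markers to 889 to 2755 CPM and 155 to 682 CPM. The part of these differences in the FMRP and Hu comparison was not tested. In these tissue lysates, fewer cells of a type and less RNA per cell cannot be told apart, and tags were not adjusted for mRNA abundance.

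FMRP tags were found on most Ppp mRNAs, usually in small number. Of the 58 Ppp genes, 43 (74.1%) had at least 1 FMRP tag in the authors' table, beside 8915 of all 29232 genes (30.5%), a difference that was not tested. A set of 5 genes had a tag in each of the 7 FMRP libraries, namely Ppp2r2c, Ppp3ca, Ppp2r1a, Ppp1r9b and Ppp2r5b. Counted on RefSeq transcripts for both proteins, FMRP tags fell on 45 Ppp genes and Hu tags on 31, and 29 genes had tags of both. By that count FMRP tags without Hu tags were seen on 16 genes, Hu tags without FMRP tags on 2 (Ppp3cc and Ppp4r2) and neither on 11. The FMRP tags come from 7 libraries and the Hu tags from 2, so these counts do not compare the proteins. Of the 11 catalytic genes, 10 had FMRP transcript tags and 9 had Hu tags. Of the 47 regulatory genes, 35 had FMRP transcript tags and 22 had Hu tags.

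**Figure D1:**
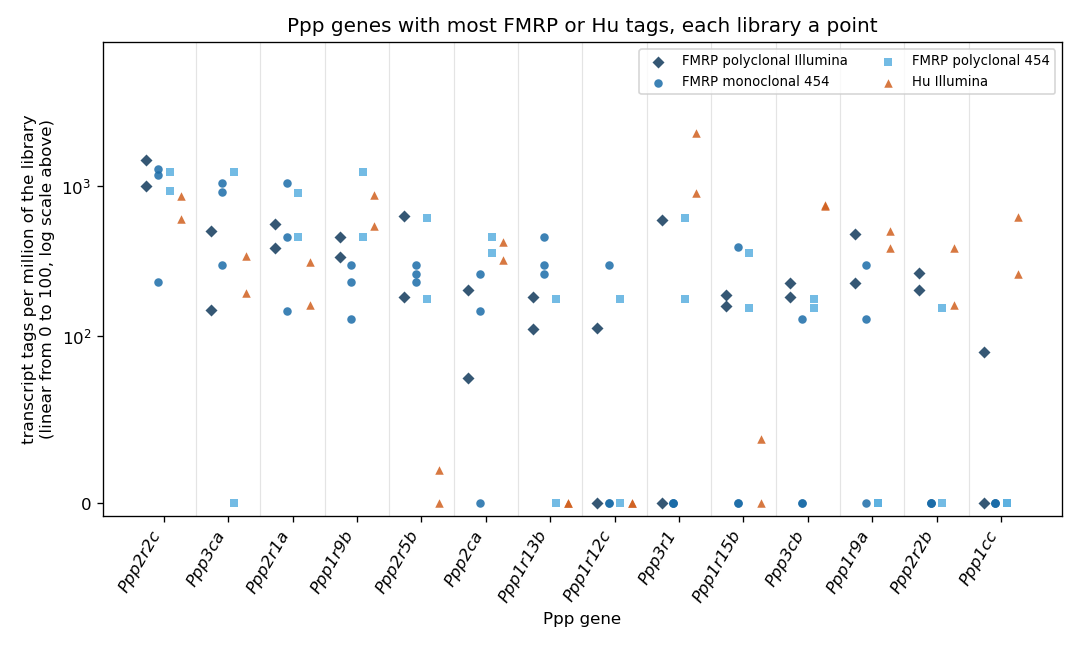
Transcript tags in CPM (y axis, linear to 100 and logarithmic above) for the 14 Ppp genes (x axis) that rank among the first 10 by FMRP or by Hu tags, with each library a point and colours and shapes for antibody and platform. Ppp2r2c lies highest in most FMRP libraries, and Ppp3r1 holds the highest Hu point, in the P13 library.

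Summed over the 7 libraries, PP2A genes held 293 of the 673 Ppp tags in the authors' FMRP counts, PP1 genes 246, calcineurin genes 116, and the single-gene or small groups of PP4, PP5 and PP6 together 18. The order of PP2A and PP1 was not the same in each library, since PP1 genes had more tags than PP2A genes in 3 of the 7, the P13 Illumina library among them. The gene with most FMRP tags was Ppp2r2c (mm9 chr5:37259809-37346317), which encodes a B subunit of PP2A expressed mainly in brain. It had 41 and 41 tags in the P11 and P13 FMRP Illumina libraries, 1, 7 and 10 in the P14, P15 and P25 monoclonal libraries, and 7 and 7 in the P14 and P25 polyclonal 454 libraries. Its mean was 1019 ± 420 CPM (SD, n = 7), and the monoclonal P14 library was the lowest at 223 CPM. The scaffold subunit gene Ppp2r1a had 13 and 12 tags in the Illumina libraries, 2, 1 and 7 in the monoclonal libraries and 3 and 2 in the polyclonal 454 libraries, or 426 ± 221 CPM (SD, n = 7).

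Other B subunits of PP2A were seen less evenly. Ppp2r5b, a B56-type subunit gene, had 15 and 5 tags in the FMRP Illumina libraries, 1, 2 and 2 in the monoclonal libraries and 4 and 1 in the polyclonal 454 libraries. Ppp2r2b, a neuronal B subunit gene related to Ppp2r2c, had 6 and 8 tags in the FMRP Illumina libraries and 1 tag in all 5 libraries on 454. The catalytic gene Ppp2ca had 3 and 11 tags in the Illumina libraries, 0, 1 and 2 in the monoclonal libraries and 3 and 2 in the polyclonal 454 libraries. The second PP2A catalytic gene, Ppp2cb, had 2 and 3 tags in the Illumina libraries and 2 tags in the 5 libraries on 454 together. The Illumina transcript lists hold no tag of Ppp2cb for either protein, while the genomic lists, with the tags placed on the mm9 genome, hold 2 and 3 for FMRP on Illumina against 1 and 6 for Hu, so its Hu level by transcript tags is uncertain.

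Among calcineurin genes, the catalytic Ppp3ca stood second of all Ppp genes for FMRP, at 716 ± 559 CPM (SD, n = 7). It had 5 and 40 tags in the P11 and P13 Illumina libraries, 5, 1 and 8 in the monoclonal libraries and 1 and 9 in the polyclonal 454 libraries. Per library its level ran from 136 CPM in the P15 monoclonal library to 1539 CPM in the P25 polyclonal library, and the P14 monoclonal library, at 1117 CPM, lay above the P25 monoclonal library, at 959 CPM. Of its 69 tags in the authors' counts, 45 lay in the row with a RefSeq length, and per kilobase of transcript these gave 237 CPM per kb, with Ppp2r2c at 253 and Ppp2r1a at 189 CPM per kb. The catalytic Ppp3cb had 6 and 9 tags in the Illumina libraries, 0, 0 and 1 in the monoclonal libraries and 1 and 2 in the polyclonal 454 libraries. Ppp3r1, the calcium-binding regulatory subunit gene, had 0 and 23 tags in the Illumina libraries, none in the monoclonal libraries and 4 and 1 in the polyclonal 454 libraries, so the P13 library held most of its FMRP tags. No FMRP tag fell on the third catalytic gene, Ppp3cc, or on the regulatory Ppp3r2 in the authors' counts.

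Of the 246 FMRP tags on the 32 PP1 genes, the catalytic genes Ppp1cb, Ppp1ca and Ppp1cc held 33, 9 and 0. The regulatory genes held the rest, but they are many more, so this does not show a higher level per gene. Ppp1r9b, which encodes spinophilin, had 7 and 19 tags in the Illumina libraries, 1, 2 and 1 in the monoclonal libraries and 2 and 6 in the polyclonal 454 libraries, or 377 ± 301 CPM (SD, n = 7). Its relative Ppp1r9a, which encodes neurabin, had 6 and 21 tags in the Illumina libraries, 0, 1 and 1 in the monoclonal libraries and none in the polyclonal 454 libraries. Ppp1r9a thus had FMRP tags in 4 of 7 libraries, and Ppp1r9b in all 7. Ppp1r13b, which encodes a partner of p53 that binds PP1, averaged 204 ± 139 CPM, Ppp1r12c, a myosin phosphatase targeting subunit gene, 198 ± 163 CPM, and Ppp1r15b, whose product directs PP1 to the initiation factor eIF2, 154 ± 146 CPM (SD, n = 7 each). Ppp1r13b, Ppp1r12c and Ppp1r15b had 18, 13 and 14 FMRP tags over the 7 libraries. In the libraries on 454, 1 tag of a gene was 120 to 223 CPM, so these means rest on few tags. The catalytic gene Ppp1cb had 3 and 28 tags in the Illumina libraries, 0, 0 and 1 in the monoclonal libraries and 1 and 0 in the polyclonal 454 libraries. Ppp1ca had 3 and 5 tags in the Illumina libraries and 1 tag on 454, and Ppp1cc had none in the authors' counts. The catalytic genes of the remaining enzymes were low, with 8 FMRP tags over 7 libraries on Ppp5c, 5 on Ppp6c and 3 on Ppp4c.

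Catalytic genes took a smaller share of the Ppp tags for FMRP than for Hu within the Illumina libraries, but not against every FMRP library. By transcript tags the catalytic share was 11.3% (95% Wilson interval 7.36 to 17) and 18.9% (14.9 to 23.7) in the P11 and P13 FMRP Illumina libraries, against 36.2% (29.2 to 43.8) and 27.3% (23.1 to 32) in the P11 and P13 Hu libraries. The 5 FMRP libraries on 454 ranged from 10.3% to 35.7%, with 14 to 52 Ppp tags each, and so overlapped the Hu libraries. By genomic tags, which reach past the RefSeq ends, the shares were 16.0% and 31.1% for FMRP on Illumina against 42.2% and 45.2% for Hu. In the authors' FMRP counts the share was 16.1% and 32% on Illumina and 8.33% to 35.3% on 454. The intervals cover counting error only, and the members of a role share a library, so the difference was not tested.

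**Figure D2:**
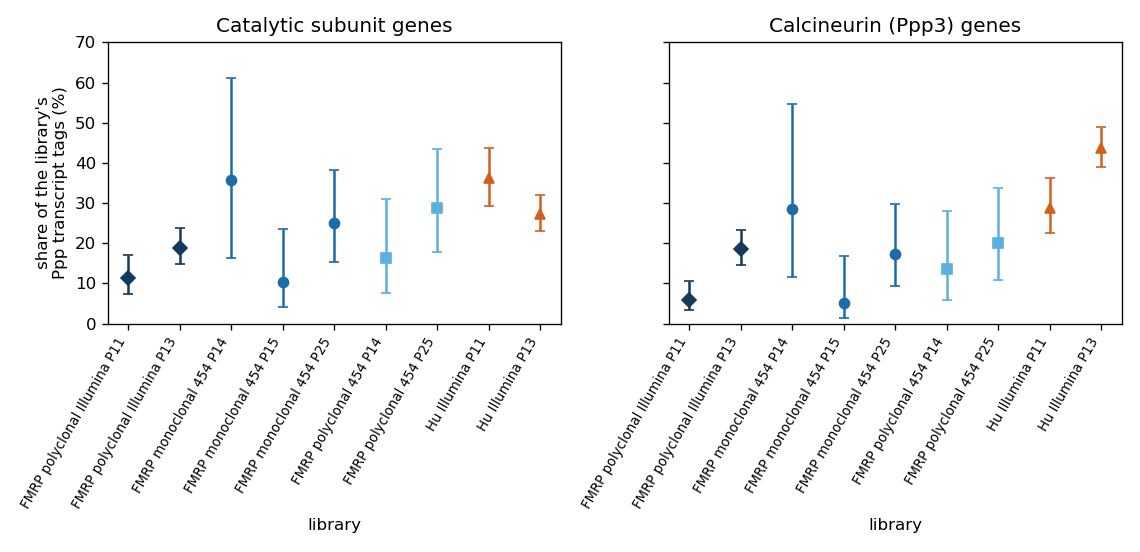
Share of each library's Ppp transcript tags (y axis, %) that fell on catalytic subunit genes (left) and on calcineurin genes (right), by library (x axis), with bars for 95% Wilson intervals. In the Illumina libraries the FMRP points at 11.3% and 18.9% lie below the Hu points at 36.2% and 27.3% for catalytic genes, while the 454 points reach 35.7%.

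Split by enzyme, the largest gap between the proteins was on calcineurin genes, a grouping chosen after the values were seen. Calcineurin genes took 5.95% and 18.6% of Ppp transcript tags in the P11 and P13 FMRP Illumina libraries, against 28.8% and 43.8% in the P11 and P13 Hu libraries. The FMRP libraries on 454 ranged from 5.13% to 28.6%. Leaving Ppp3r1 out of the calcineurin tags, but not out of the Ppp total, gave 5.95% and 9.97% for FMRP on Illumina against 14.7% and 14.4% for Hu. The FMRP shares thus stayed below the Hu shares. Keeping its tags in the total lowers the Hu shares most, so the part of the gap that lay on Ppp3r1 was not measured. PP2A genes ran the other way, with 57.1% and 38.9% of Ppp tags for FMRP on Illumina against 36.2% and 22.8% for Hu, and the P13 FMRP and P11 Hu values lay close together.

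Gene by gene, FMRP was set against Hu in the 4 Illumina libraries by a model fitted across all genes. Of the 58 Ppp genes, 8 passed the low-count filter, and none was called higher or lower in FMRP at an adjusted p of 0.05 (edgeR quasi-likelihood test, Benjamini-Hochberg adjustment). Over all 1015 genes tested, 341 (33.6%) were higher and 277 (27.3%) lower in FMRP, and the median log2 fold change was -0.16. Before adjustment 1 of the 8 had a p under 0.05 with edgeR and 0 with DESeq2. The filter removes genes with few tags, so the 8 do not stand for all 58.

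The estimates of the 8 tested genes, none called, ran from Ppp2r1a and Ppp2r2c at the FMRP end to Ppp3cb and Ppp3r1 at the Hu end. They did not sort by enzyme, since the calcineurin gene Ppp3ca lay at 0.61 and the PP2A gene Ppp2ca at -0.95. Ppp2r1a had 15 and 17 transcript tags in the P11 and P13 FMRP libraries against 8 and 8 in the P11 and P13 Hu libraries, a log2 fold change of 1.31 (SE 0.67). Ppp2r2c had 40 and 44 FMRP tags against 22 and 30 Hu tags, a log2 fold change of 1.04 (SE 0.58). Neither gene passed, with Benjamini-Hochberg adjusted p of 0.109 and 0.140 in the edgeR quasi-likelihood fit. With DESeq2's size factors in place of TMM, Ppp2r2c passed at 1.44.

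At the other end, Ppp3r1 had 0 and 26 FMRP tags against 23 and 112 Hu tags, a log2 fold change of -1.94 (SE 1.06). Ppp3cb had 6 and 8 FMRP tags against 19 and 37 Hu tags, a log2 fold change of -1.59 (SE 0.67). Both genes lay lower in FMRP within each lysate, and their Benjamini-Hochberg adjusted p in the edgeR quasi-likelihood fit was 0.131 and 0.0626. With the lysate as a replicate block, Ppp3r1 fell by 2.48 on the log2 scale and passed, with an adjusted p of 0.00462 by the same edgeR test, beside 32.6% of all genes called higher and 26.5% called lower in that fit. Fits with a library left out leave 1 library in a group, so only their log2 fold changes are given. For Ppp3r1 this was -8.63 without the P13 FMRP library, which leaves it no FMRP tag, and -2.63 without the P11 Hu library. It was -0.65 without the P11 FMRP library, which holds none of its tags, and -0.73 without the P13 Hu library.

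The other catalytic genes tested did not separate from 0. Ppp3ca had 4 and 22 FMRP transcript tags against 5 and 17 Hu tags, a log2 fold change of 0.61 (SE 0.74). Ppp2ca had 2 and 9 FMRP tags against 11 and 16 Hu tags, a log2 fold change of -0.95 (SE 0.64). Its value rests on the P11 FMRP library, since it was -0.03 without that library and -1.58 without the P13 FMRP library. The spine scaffold gene Ppp1r9b had 9 and 20 FMRP tags against 14 and 43 Hu tags, at -0.54 (SE 0.67), and Ppp1r9a had 6 and 21 FMRP tags against 10 and 25 Hu tags, at 0.00 with a sign that turned between settings (SE 0.72). Over the 3 catalytic genes tested the median log2 fold change was -0.95, and over the 5 regulatory genes it was 0.00, beside -0.16 over all genes.

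**Figure D3:**
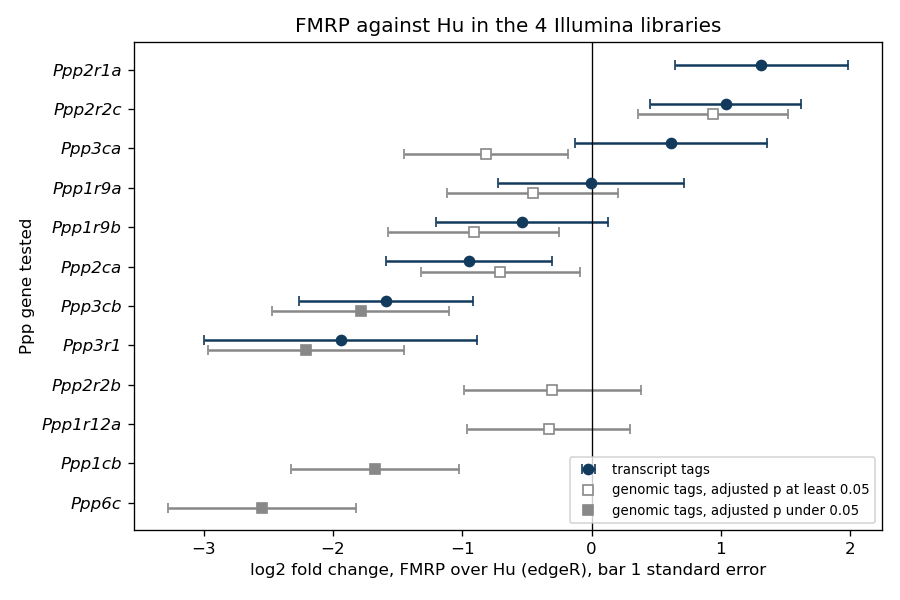
Log2 fold change of FMRP over Hu (x axis, positive for higher in FMRP, bars 1 standard error) for each Ppp gene tested (y axis) with transcript tags (circles) or genomic tags (squares, filled where the adjusted p is under 0.05). No gene passed with transcript tags, and Ppp3cb, Ppp3r1, Ppp1cb and Ppp6c passed with genomic tags, all lower in FMRP.

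Counting tags on the genome in place of RefSeq transcripts brought 11 Ppp genes into the test and 4 calls, all lower in FMRP, beside 27.7% of 1005 genes called higher and 26.8% called lower. The catalytic gene Ppp6c had 0 and 5 genomic tags in FMRP against 9 and 27 in Hu, a log2 fold change of -2.55 (SE 0.73). Ppp1cb had 3 and 28 genomic tags in FMRP against 31 and 79 in Hu, at -1.67 (SE 0.65). Ppp3r1 and Ppp3cb lay at -2.21 and -1.79 by the same count. Their Benjamini-Hochberg adjusted p in the edgeR quasi-likelihood fit ran from 0.00558 to 0.0304. Of these genes 3 of 4 are catalytic, beside 5 of the 11 tested by this count. Ppp3ca, at 6 and 47 genomic tags in FMRP against 20 and 91 in Hu, turned to -0.82 and did not pass.

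The count sources parted where tags lay past the RefSeq transcript or were missing from the transcript lists. For Ppp3ca, the stretch just past the RefSeq 3′ end (mm9 chr3:136598749-136600695, plus strand, listed as its own row of the authors' table) held 1 and 15 FMRP tags on Illumina against 9 and 56 Hu tags. For Ppp6c, a stretch of the minus strand beyond the RefSeq 3′ end (chr2:39049874-39052217) held 0 and 2 FMRP tags against 4 and 15 Hu tags. These stretches thus held 65 of 111 Hu tags on Ppp3ca and 19 of 36 on Ppp6c. For Ppp1cb the transcript lists held only 1 and 3 FMRP tags against 2 and 1 Hu tags, while its genomic tags lay within the RefSeq bounds. Ppp1cc showed the reverse, with 0 and 4 FMRP transcript tags against 16 and 13 Hu transcript tags, and 0 and 0 against 0 and 2 genomic tags. Without the P13 FMRP library, Ppp1cc had no FMRP transcript tag left, so no call is read from that fit. Levels of Ppp1cb and Ppp1cc by transcript tags are therefore uncertain, and whether tags shared with near-identical copies account for this was not tested.

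Below the filter, several regulatory genes had FMRP tags and almost no Hu tags. Ppp2r5b had 17 and 8 FMRP transcript tags against 0 and 1 Hu tags, a ratio of CPM of 26.7 (95% exact counting interval 4.37 to 1097). Without the low-count filter it passed, with a Benjamini-Hochberg adjusted p of 0.0283 in the edgeR quasi-likelihood fit, beside 3.64% of 10338 genes called higher and 1.5% called lower. Its log2 fold change was 5.90 with the FMRP library of P13 left out. It was 4.02 when Hu at P11 was dropped and 6.93 when Hu at P13 was dropped. Such fits leave 1 library in a group, and Ppp2r5b passed the filter only there, so no call is read from them. It was not tested without the P11 FMRP library, which holds 17 of its FMRP tags. Ppp1r16b, a PP1 subunit gene named here after its values were seen, had 8 and 7 FMRP tags against 0 and 0 Hu tags. Against a floor of 3 Hu counts over the group this is 5.34-fold higher in FMRP. The FMRP count is taken as exact in such a fold, so it is not a lower limit. By genomic tags Ppp1r16b had 6 and 10 FMRP tags against 1 and 1 Hu tags. By transcript tags it too passed without the low-count filter, with a Benjamini-Hochberg adjusted p of 0.0374 in the edgeR quasi-likelihood fit. Ppp1r13b had 3 and 8 FMRP tags against 0 and 0, or 3.92-fold higher against the same floor, and Ppp1r12c 0 and 5 against 0 and 0. On the other side, Ppp4r2, also named after its values were seen, had 0 and 0 FMRP tags against 3 and 5 Hu tags. Against the same floor this is 2.50-fold lower in FMRP, with the Hu count taken as exact.

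The catalytic genes not yet compared were near the limit of counting. Ppp1ca had 2 and 5 FMRP transcript tags against 0 and 0 Hu tags. The same floor puts it 2.49-fold higher in FMRP, with the FMRP count taken as exact. Ppp4c had 3 and 2 FMRP tags against 1 and 3 Hu tags, and Ppp5c had 1 and 2 against 0 and 3. No difference was detectable at this depth for Ppp4c and Ppp5c, whose ratios of CPM had intervals of 0.29 to 6.73 and 0.14 to 7.98. Ppp3cc had 0 and 0 FMRP tags against 0 and 1 Hu tag.

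Hu tags lay nearer the 3′ end than FMRP tags on most Ppp transcripts. The position of a tag was taken as its middle, in percent of transcript length from the 5′ end. The median Ppp tag lay at 36.5% and 43.9% in the P11 and P13 FMRP Illumina libraries, at 32.2% to 52.9% in the FMRP libraries on 454, and at 72.5% and 67.9% in the P11 and P13 Hu libraries. All genes together gave 33.4% to 38.5% over the FMRP libraries and 60.9% and 61.5% in the Hu libraries, so the groups did not overlap for Ppp genes or for all genes.

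Of the 12 Ppp genes with at least 5 tags of each protein, 11 had their median Hu tag nearer the 3′ end than their median FMRP tag. On Ppp2r1a the median lay at 45.8% for FMRP and 92.9% for Hu, the widest gap of the 12. On Ppp3cb it lay at 21.1% for FMRP and 67.9% for Hu, and on Ppp3ca at 41.5% for FMRP and 78.1% for Hu. On Ppp2r2c it lay at 43.6% for FMRP and 78.3% for Hu, and 51 of its 52 Hu tags were in the 3′ part of the transcript beyond its midpoint, against 51 of 116 FMRP tags. The exception was Ppp3r1, at 48.9% for FMRP and 46.4% for Hu. With the FMRP Illumina libraries alone its FMRP median lay at 44.0%, on the other side of the Hu median. That of Ppp1r9b lay at 53.3%, against 41.1% with the 7 libraries and 80.6% for Hu. Ppp3r1 has a short coding sequence (654 of 3371 nt by the authors' table). The middles of its Hu tags lay between 689.5 and 2790.5 nt, with quartiles at 1182 and 2064 nt. Spinophilin's Ppp1r9b held 22 of its 57 Hu tags within a window of 100 nt, against 7 of 43 FMRP tags in their densest window.

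**Figure D4:**
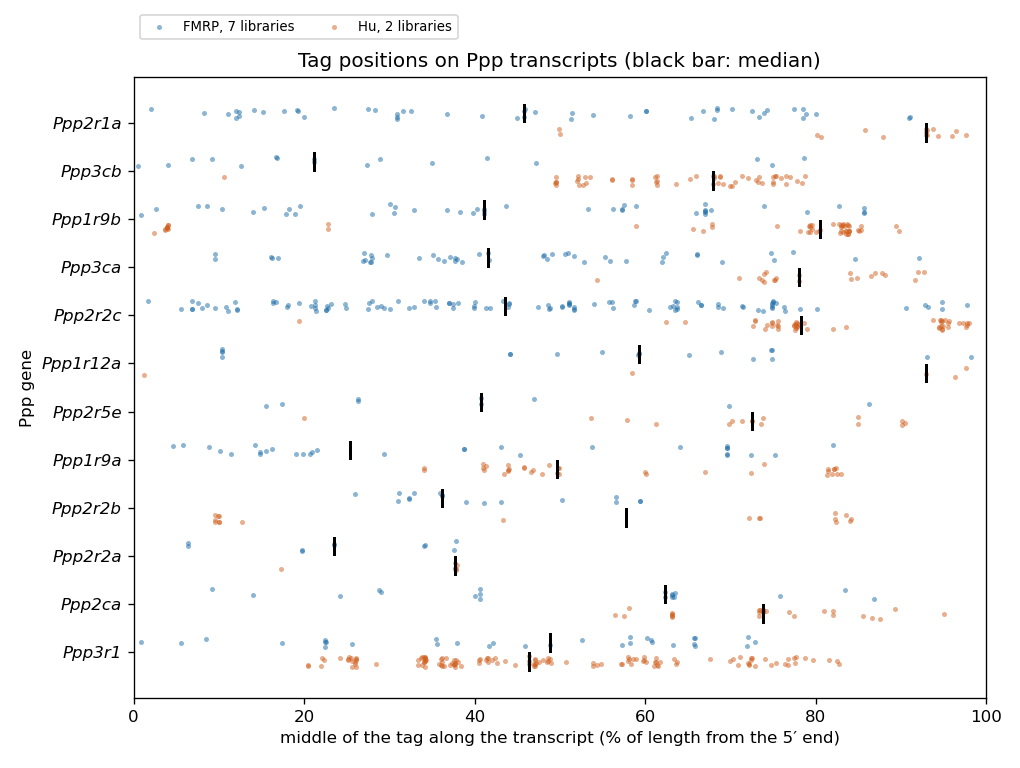
Middle of each tag along the transcript (x axis, % of length from the 5′ end) on the 12 Ppp genes with at least 5 tags of each protein (y axis), FMRP tags in blue above Hu tags in orange, medians as black bars. The Hu median lies to the right of the FMRP median on 11 genes, and to the left of it on Ppp3r1. FMRP tags are from 7 libraries and Hu tags from 2.

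FMRP tags on Ppp mRNAs fell in coding sequence more than an even spread along the transcripts would give, and less than FMRP tags on all genes. By the authors' counts the share of Ppp tags in coding sequence averaged 70.1% ± 11.7 over the libraries (SD, n = 7). It would average 51.7% ± 5.65 if the tags of each gene were spread evenly, and 7 of 7 libraries lay above that level. Pooled over the 7 libraries, 409 of 642 Ppp tags were in coding sequence (63.7%, Wilson interval 59.9 to 67.3; 48.3% with an even spread). For all genes the share was 81.1% ± 5.55 (SD, n = 7), and the Ppp share was below it in every library except monoclonal P14, where it was 93.8% of 16 tags. An even spread would itself give all genes a higher share than Ppp genes in every library except monoclonal P14. In the P11 Illumina library it would give 56.6% for all genes and 49.6% for Ppp genes. The P13 Illumina library gave the lowest share for Ppp genes, 57.3%, and for all genes, 69.7%. Catalytic genes had 102 of 149 tags (68.5%) and regulatory genes 307 of 493 (62.3%) in coding sequence, with Wilson intervals that overlap (60.6 to 75.4 and 57.9 to 66.4).

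Single genes differed in this share. On Ppp2r1a 40 of 40 FMRP tags were in coding sequence (100%, Wilson interval 91.2 to 100; 78.5% with an even spread). Ppp3ca had 38 of 45 (84.4%; 69.8% with an even spread), and Ppp2r2c 52 of 114 (45.6%, interval 36.8 to 54.8; 33.3% with an even spread). At the low end, Ppp3r1 had 5 of 28 (17.9%; 19.4% with an even spread) and Ppp2ca 10 of 22 (45.5%; 48.2% with an even spread), so neither gene stood above its even spread. The coding counts exclude the rows of the authors' table that lie outside RefSeq transcripts.

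**Figure D5:**
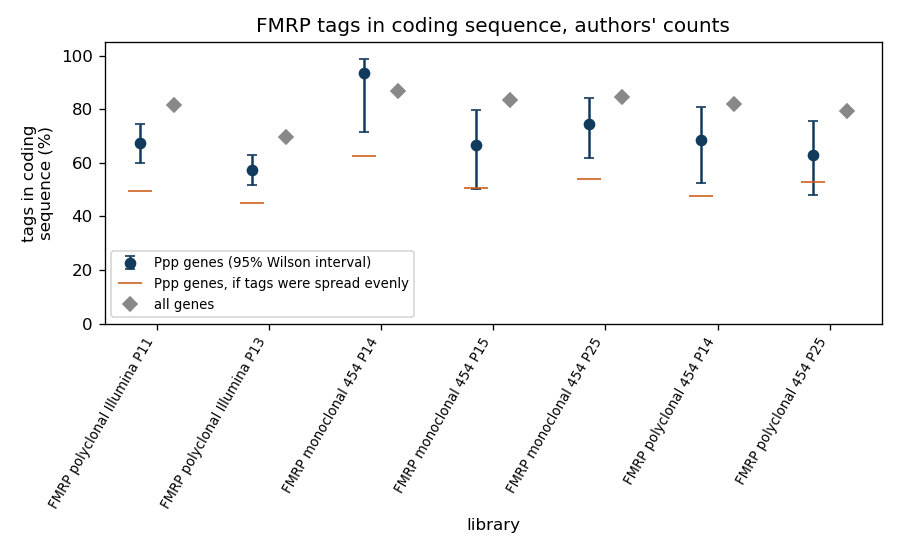
Share of FMRP tags in coding sequence (y axis, %) in each FMRP library (x axis) for Ppp genes (circles, bars 95% Wilson intervals), for the same genes with tags spread evenly (dashes) and for all genes (diamonds). The Ppp share lies above the dash in 7 of 7 libraries and below the diamond in all but monoclonal P14.

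The antibody, the age of the mice and the protocol gave no call on a Ppp gene. Between monoclonal and polyclonal FMRP libraries on 454, and between P25 and the younger libraries, 0 of 96 genes tested were called (0%; edgeR quasi-likelihood test, Benjamini-Hochberg adjusted; 3 and 5 genes with an unadjusted p under 0.05, and 0 calls by DESeq2). No Ppp gene passed the low-count filter there. Without the filter 35 Ppp genes were tested and 0 called in either comparison. Of all 5935 genes tested that way 0 were called either, so the lack of calls is not particular to Ppp genes. Between Protocol 2 and Protocol 1 with the polyclonal antibody, 14 of 334 genes (4.19%) were higher and 14 (4.19%) lower, and protocol, platform and age cannot be told apart in it. The 2 Ppp genes tested there were Ppp2r2c, at a log2 fold change of 0.40 (SE 0.57), and Ppp3ca, at -0.25 (SE 0.89), and neither passed.

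Partners and relatives of the Ppp enzymes were read from lists chosen with earlier results of these data known. Their counts stand beside 33.6% of all 1015 genes tested called higher and 27.3% called lower in FMRP, and lists this short are given as counts alone. Of 19 calcineurin partners and substrates, 7 were tested, 3 higher and 3 lower in FMRP, with a median log2 fold change of 0.35 beside -0.16 over all genes. Cabin1, which encodes a calcineurin inhibitor, had 11 and 21 FMRP tags against 1 and 0 Hu tags, and was called higher with the calcineurin substrate genes Dnm1, at 3.07 (SE 0.82), and Itpr1, at 2.85 (SE 0.89). Of 21 PP2A partners without a Ppp symbol, 2 were tested, with Strn4, a striatin gene, higher at 3.37 (SE 0.86) and Set, a PP2A inhibitor gene, lower at -3.93 (SE 0.89).

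Of 14 PP1 partners, 5 were tested, 2 higher (Wnk1, a kinase gene, at 2.95, SE 0.70, and Akap9, a kinase-anchoring scaffold gene, with 23 and 21 FMRP tags against 0 and 0 Hu tags) and 1 lower (Csrnp2, at -2.21, SE 0.83). Of 18 metal-dependent serine and threonine phosphatases of the unrelated PPM family, 3 were tested, with Phlpp1 higher at 3.71 (SE 0.98) and Ppm1k lower at -4.03 (SE 1.02). Of 16 genes of PKA and calmodulin-dependent kinases, which act against these phosphatases, 9 were tested, 0 higher and 2 lower, namely Prkar1a at -2.08 (SE 0.78) and Camk2d, with 2 and 7 FMRP tags against 23 and 20 Hu tags. The median of these 9 log2 fold changes was -1.45, beside -0.16 over all genes.

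A deposited exon array intensity was matched to 53 Ppp genes. Over these, Spearman's rho of the intensity with the mean FMRP CPM was 0.36 and with the mean Hu CPM 0.33. Over all 58 genes rho between the mean FMRP Illumina CPM and the mean Hu CPM was 0.61, and over 55 genes rho between the mean FMRP CPM and transcript length was 0.15. These are descriptions of sparse counts that share libraries, and no finding is read from them. Ppp2r1a had the highest intensity of the Ppp genes, 5647, and Ppp3cb 3488, while Ppp2r2c, first in FMRP tags, had 1148.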

How the data were processed

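Unique HITS-CLIP tags were deposited per library as lists placed on the mm9 genome and on RefSeq transcripts, aligned with Novoalign per the submitters' processing notes. For the 7 FMRP libraries the authors' gene table holds tag counts of each gene in whole numbers, and it also gives an exon array intensity. The deposited value beside each Illumina tag is a score of no stated meaning and was not used. Each line was counted as 1 tag. Start positions were read as 0-based and are printed 1-based. Strand of 44 Ppp genes for genomic tags came from RefSeq's promoter table, otherwise from the strand with more tags.

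Counts were fitted over all genes with edgeR 4.0.16 in R 4.3.3 (TMM, filterByExpr, quasi-likelihood test, Benjamini-Hochberg adjustment at 0.05, two-sided), with DESeq2 1.42.0 as an alternative. The scripts were tested on simulated data. FMRP against Hu used transcript tags, since the gene table has FMRP columns only. In the authors' table, 314 of 30999 rows name no gene (0.277% of tags) and were left out. The lysate pairing comes from the series text, which describes each of the P11 and P13 lysates as divided between the antibodies.

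Genes were named by a rule: every catalytic gene, every gene tested for FMRP against Hu, and the 10 highest by FMRP and by Hu CPM. The members and lists were chosen with earlier results of these data known. Nothing in the sources separates pools within a group, so a p-value reflects only how far these libraries spread. Shares carry 95% Wilson intervals, and intervals cover counting error only. A floor covers the counting error of the protein with no tags, and not that of the other protein. The genes called lower among the calcineurin partners are counted but not reported here by name.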

Additional observations from a re-analysis of the deposited data

Results flagged for a closer look

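Among the 10 Ppp genes with the highest mean FMRP CPM, Ppp1r9b had a library far from the others, the polyclonal P25 library on 454 at 1026 CPM by the authors' counts, which is 6 tags. The other 6 FMRP libraries lay at 120 to 437 CPM. Chance gives such a gap in about 1 of 20 groups, and 10 genes were looked at.

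Ppp2r5a, a B56-type PP2A subunit gene, had 9 genomic tags over the 9 libraries, with none in the transcript lists. These were 2 and 5 in the P11 and P13 FMRP Illumina libraries, 2 in the monoclonal P25 library and none in Hu.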

How the results depend on the processing

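The count of Ppp genes higher in FMRP than in Hu was 0. It was 1 of 8 with DESeq2's size factors, beside 382 of all 1015 genes, and 2 of 44 without the low-count filter, beside 376 of 10338. The count lower was 0. It was 2 of 8 with library totals, beside 366 of 1015 genes, and 4 of 11 with genomic tags, beside 269 of 1005. It was 1 of 7 with 1 tag per start position, beside 311 of 955, and 1 of 8 with the authors' FMRP counts, beside 332 of 1011. With the lysate as a replicate block the count lower was 1 of 8, beside 269 of 1015, and the block changed no other Ppp call. Fits with a library left out leave 1 library in a group, and no count is read from them. Ppp3ca turned to -0.82 with genomic tags. Ppp1r9b ran from -1.04 to 0.29 with each library left out, positive without the P11 FMRP library (0.14) and without the P13 Hu library (0.29). Ppp1r9a, at 0.00, was 0.28 with DESeq2's size factors, 0.27 with DESeq2, 0.11 with the authors' FMRP counts, 0.88 without the P11 FMRP library and 0.62 without the P13 Hu library. DESeq2's size factors moved the median of all genes to 0.21 and library totals to -0.38, against -0.16 with TMM, and the share of calls that were higher was 61.6% and 47.9% against 55.2%. The catalytic share was 15.1% for FMRP on Illumina and 31.7% for Hu. Without the gene with most tags of each protein it was 18.5% for FMRP (without Ppp2r2c) and 40.4% for Hu (without Ppp3r1). Both genes are regulatory, so leaving them out can only raise the share. With genomic tags, an alternative added after the data were examined, the shares were 23.6% and 43.7%. The causes were not tested. Of 73 other-setting values of the counts and shares, 58 stayed within their limits and 15 moved. The 58 include the antibody, age and protocol counts. No gene at all was called in any antibody or age setting, so those counts had no room to move. Of the other-setting log2 fold changes of single genes, 75 stayed the same, 10 were stronger and 8 reversed.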

Other observations

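A further 14 genes carry a Ppp symbol in the present RefSeq table but another symbol in the authors' table, and were looked up after the data were examined. Together they had 115 FMRP Illumina transcript tags and 36 Hu tags. The PP6 regulatory subunit genes Ppp6r1 and Ppp6r2 had 10 and 11, and 11 and 5, tags in the P11 and P13 FMRP libraries, against 2 and 0, and 0 and 2, in the P11 and P13 Hu libraries. Ppp1r37, a PP1 regulatory subunit gene, had 2 and 17 FMRP tags against 0 and 2 Hu tags. Ppp4r3a, a PP4 regulatory subunit gene, had 4 and 8 FMRP tags against 0 and 7 Hu tags. Ppp1r17, which encodes a phosphatase inhibitor of cerebellar Purkinje cells, had 0 and 0 FMRP tags against 3 and 6 Hu tags. A row that the present table names Ppp2r3a, a PP2A B subunit gene, had 12 and 7 FMRP tags against 0 and 3 Hu tags, while the row that the authors' table calls Ppp2r3a had none in the Illumina libraries and 4 FMRP tags in the 454 libraries.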
